A study of Mus musculus with 7 samples.

Results

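The genes described here are 10 ligands and receptors of the vascular endothelial growth factor (VEGF) and angiopoietin families, measured in cells sorted from mouse bone marrow. They are the 4 ligand genes Vegfa, Vegfb, Vegfc and Angpt1, the 4 receptor tyrosine kinase genes Kdr, Flt1, Flt4 and Tek, and the 2 co-receptor genes Nrp1 and Nrp2. Every probe set annotated with 1 of these symbols and no other was taken, which gave 24 probe sets out of 45037 on the array besides its controls. Amplified RNA of 1800 to 10000 cells per sample was hybridised to 7 Affymetrix Mouse GE 430 2.0 arrays, and the 2 populations came from wild-type C57Bl/6J mice of 6 to 12 weeks. The 4 stromal arrays hold cells that were CD45-Lin-CD54+CD31-BP1+, labelled bone marrow stromal cells. The 3 endothelial arrays hold cells that were CD45-Lin-CD54-CD31+, labelled bone marrow endothelial cells. The mice carried no further allele or treatment in the labels, which do not say whether arrays of a population came from separate mice or sorts, so the p-values measure the spread between these samples only. The question is which of the 2 populations carries transcripts for the ligands and which for the receptors.

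VEGF-A, VEGF-B and VEGF-C are secreted dimers that bind receptor tyrosine kinases on blood and lymphatic vessel cells. VEGF-A binds VEGFR1 (Flt1) and VEGFR2 (Kdr), VEGF-B binds VEGFR1, and VEGF-C binds VEGFR3 (Flt4) and, once processed, VEGFR2, with the neuropilins Nrp1 and Nrp2 as co-receptors that also bind class 3 semaphorins. Angiopoietin-1 (Angpt1) activates the receptor TIE2 (Tek) on endothelial cells, and in marrow the sinusoidal endothelium depends on VEGFR2 to regrow after injury. Human platelets are known to carry VEGF-A and angiopoietin-1.

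The labels were first set against marker lists. Reticular stroma genes averaged 12.66 to 12.88 on the stromal arrays and 5.32 to 6.30 on the endothelial arrays on the log2 expression scale used throughout, and all 11 were higher on the stromal arrays, 3 of them passing the filter on dim values (at least 3 arrays above their own 40th percentile) there alone. Of 16 endothelial markers, 12 could be tested, 4 of them lower and 1 higher on the stromal arrays, and 2 of the 4 passed that filter through the endothelial arrays alone. Among all 13995 genes tested with 1 probe set each, 30.5% were higher and 16.0% lower on the stromal arrays. Nothing is read from the 4 against that share, since 2 of them had to differ to be tested. The 4 were Esam (log2 difference, stromal minus endothelial, -5.01), Plvap (-3.58), Pecam1 (-3.48) and Lyve1 (-2.44), and the 1 higher was Ramp2 (2.66). Icam1 (CD54) and Enpep (BP1) among the stroma genes and Pecam1 (CD31) here encode sorting antigens. The sort itself set their direction, so they are no check of the labels. The list mean lay at 5.95 to 6.11 on the stromal arrays, against 7.03 to 7.08 on the endothelial arrays. Cdh5 (VE-cadherin), Emcn (endomucin) and Tie1, 3 of the 4 markers that could not be tested, lay below the 40th percentile of every array in both populations. All 10 megakaryocyte and platelet markers were lower on the stromal arrays, with list means of 5.79 to 8.39 there, the highest on stromal 4, and 13.43 to 13.83 on the endothelial arrays. "Endothelial" is therefore used below as the name on the label. In RNA from many cells, fewer cells of a type and less RNA per cell cannot be told apart, and the cell type that carried each transcript within a sort was not tested. Spiked-in hybridisation controls (18 probe sets) averaged 11.33 on endothelial 2, 11.37 on endothelial 3 and between 9.51 and 9.75 elsewhere.

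VEGF ligand and neuropilin transcripts were higher on the stromal arrays, and the VEGF receptor kinase transcript Kdr was lower there. Flt1 read lower there too, but 3 of its 4 probe sets could be tested only because they differed, as set out below. A probe set was called when limma's adjusted p was under 0.05 and the log2 difference, stromal minus endothelial, was at least 1 in size. Of the 24 probe sets, 23 passed the filter on dim values, and Tek's single probe set did not. Called higher were 12, against 26.0% of all probe sets tested, and called lower were 4, against 14.6%. Of the 4, Flt1 probe sets 1419300_at and 1440926_at passed the filter through the endothelial arrays alone and had to differ to be tested, so nothing is read from the lower count against that share. The 12 comprised 1 of 2 probe sets of Vegfa, the single one of Vegfb, all 3 of Vegfc, all 4 of Nrp1 and 3 of 4 of Nrp2. The 4 comprised the single probe set of Kdr and 3 of 4 of Flt1. No probe set of Angpt1, Flt4 or Tek was called. The lower count was 1, 2 and 1 without endothelial 1, 2 and 3 in turn, where most Flt1 probe sets no longer had 3 arrays past the filter, and 3, 4 and 3 when the filter was dropped as well, a setting chosen after seeing the data. On the ligand side 5 of 8 probe sets were higher and 0 lower, with a median difference of 2.64. On the receptor side 7 of 8 neuropilin probe sets were higher (median 4.09), while 4 of 7 kinase probe sets tested were lower and 0 higher, with a median of -0.80 over all 8. The 4 include the 2 Flt1 probe sets named above. Flt1 1454037_a_at, tested but not called, also passed through the endothelial arrays alone, so the kinase count is a description. Without the filter, on all 7 arrays, 12 member probe sets were called higher and 4 lower. The median over all probe sets tested was 0.07, and -0.13 after a second quantile normalization, which moved the higher share of all calls to 51.9%, against 64.1%.

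A called difference of at least 4 toward the stromal arrays was found in 8 member probe sets of 4 genes, against 2.77% of all probe sets tested. Every stromal array lay above every endothelial array in 13 of the 24 probe sets, an order that 30.3% of all probe sets tested showed, and below in 6, which 31.4% showed. Of the 6, the Flt1 probe sets 1419300_at, 1440926_at and 1454037_a_at passed the filter through the endothelial arrays alone and so could not overlap. Nothing is read from the 6 against that share. The populations overlapped in the other 5, among them Tek, which was not tested. With 4 against 3 arrays an exact two-sided permutation test cannot go below a p of 0.0571, which 19 of the 24 probe sets reached.

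**Figure D1:**
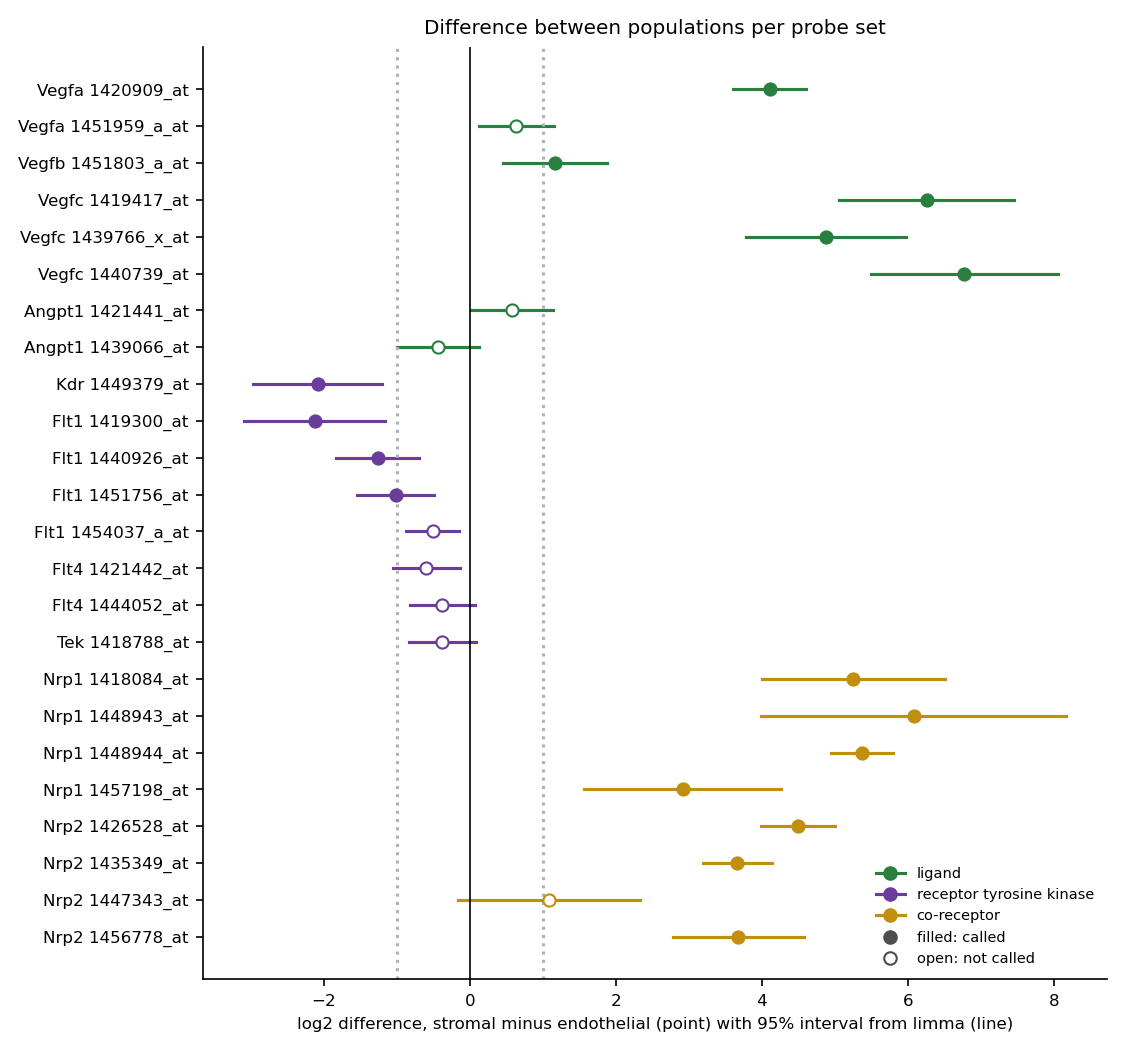
Log2 difference, stromal minus endothelial, of each of the 24 probe sets (point) with limma's 95% interval (line), coloured by role, with filled points for called probe sets and dotted lines at a difference of 1 in each direction. The interval of Tek, which was below the filter, comes from the fit without a filter. Vegfc, Nrp1 and most Nrp2 points lie far to the right, Kdr and Flt1 to the left, and the Angpt1 points lie within 1 of zero. Nrp2 1447343_at (1.08) and Flt1 1454037_a_at (-0.51) are open points nearer to zero.

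The 250 bases before the annotated transcript start are shown for Vegfc, Vegfa and Nrp2, 3 genes whose transcripts were higher on the stromal arrays together. For Kdr and Flt1, which were lower, the window lies inside the annotated gene. Only 30 bases, chosen around its match to the ETS motif given below, are shown, so their other matches are not seen. They are from RefSeq on build GRCm38.p6, each written on the gene's own strand. Capitals mark matches, on either strand, of the hypoxia-inducible factor core (ACGTG or GCGTG), of an ETS factor motif (GGAAGT) and of the GC box (GGGCGG). Matches that touch or overlap run together.
Vegfc, chr8:54077282-54077531, plus strand: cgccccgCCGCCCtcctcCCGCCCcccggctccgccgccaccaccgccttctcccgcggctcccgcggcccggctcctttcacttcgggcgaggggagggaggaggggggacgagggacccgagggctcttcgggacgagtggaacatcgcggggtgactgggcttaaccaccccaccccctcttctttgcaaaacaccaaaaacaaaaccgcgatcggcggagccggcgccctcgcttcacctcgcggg
Vegfa, chr17:46032378-46032627, minus strand: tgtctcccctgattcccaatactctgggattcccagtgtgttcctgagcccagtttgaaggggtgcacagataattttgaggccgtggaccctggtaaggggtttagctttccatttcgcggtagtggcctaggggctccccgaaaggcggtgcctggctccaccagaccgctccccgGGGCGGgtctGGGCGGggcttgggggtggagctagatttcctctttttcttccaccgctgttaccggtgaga
Nrp2, chr1:62703067-62703316, plus strand: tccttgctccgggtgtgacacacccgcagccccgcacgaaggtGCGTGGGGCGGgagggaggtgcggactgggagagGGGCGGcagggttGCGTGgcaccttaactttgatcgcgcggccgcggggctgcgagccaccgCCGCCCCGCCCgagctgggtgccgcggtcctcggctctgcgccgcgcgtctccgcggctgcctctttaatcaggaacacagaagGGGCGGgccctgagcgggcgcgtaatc
Kdr, chr5:75978655-75978684, minus strand: tggctacattttACTTCCaccagaaaccga
Flt1, chr5:147726046-147726075, minus strand: ggtgccggggtaGGAAGTgggctggggaaa

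The ETS motif was matched 1 time in the window of Kdr and 1 time in that of Flt1, and in none of the other 8 windows of the members, of which Vegfa has 2. It occurs in 19.7% of the 32851 RefSeq promoter windows of 250 bases, a share near that of the members, so nothing is read from these matches. The other kinase genes, Flt4 and Tek, had no match, and Angpt1 had no window. The hypoxia core was matched 2 times in the Nrp2 window and in neither printed window of Vegfa and Vegfc, against 38.6% of all windows. It was matched 2 times each in the windows of Kdr, Vegfb and the second Vegfa start, and 1 time each in those of Flt1 and Nrp1. The GC box was found 2 times each in the Vegfc and Vegfa windows and 5 times in that of Nrp2, against 32.7% of all windows with at least 1. It was also found 2 times in the window of Kdr and 3 times in that of Flt1, which were lower. The windows of Flt4, Vegfb, Nrp1 and the second Vegfa start held 3, 4, 1 and 1 matches, and that of Tek held 0. These are letter matches, and no binding was measured.

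Vegfc, which encodes the main growth factor of lymphatic vessels, was higher on the stromal arrays in all 3 probe sets. Probe set 1440739_at read 12.64, 12.46, 12.55 and 12.98 on stromal 1 to 4, against 4.68, 5.62 and 7.36 on endothelial 1 to 3. The lowest stromal array lay 5.10 above the highest endothelial array, and endothelial 1 and 2 lay under their array's 40th percentile. The difference was 6.77 with a 95% interval of 5.49 to 8.05 (limma adjusted p = 3.53e-05). Its other probe sets, 1419417_at and 1439766_x_at, differed by 6.26 (adjusted p = 3.85e-05) and 4.88 (adjusted p = 9.09e-05). The stromal arrays agreed closely, with SDs of 0.10 to 0.35 over the 3 probe sets (n = 4), while the endothelial SDs were 1.16 to 1.36 (n = 3). All 3 were highest on endothelial 3, at 7.36 to 8.48, and without that array the differences were 7.51, 6.94 and 5.29. Without endothelial 1 they were 6.17, 6.06 and 4.21, in the order 1440739_at, 1419417_at and 1439766_x_at both times.

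Vegfa, which encodes the main angiogenic ligand of VEGFR2, gave 2 answers. Probe set 1420909_at read 9.98, 9.46, 9.66 and 10.19 on stromal 1 to 4, against 5.62, 5.71 and 5.81 on endothelial 1 to 3. The endothelial values lay at their arrays' 40th percentile, so no fold is given, and the difference was 4.11 (interval 3.61 to 4.61, adjusted p = 3.39e-06). Probe set 1451959_a_at read 8.17, 7.49, 7.83 and 7.67 on the stromal arrays, against 7.40, 6.89 and 7.17 on the endothelial arrays. There the stromal arrays were higher without overlap, by a gap of 0.09, and the difference of 0.64 (interval 0.12 to 1.16, adjusted p = 0.0382) fell short of the required size. Which transcripts each probe set reads was not tested.

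Vegfb, a VEGFR1 ligand, has a single probe set with the smallest called difference among the ligands. It read 7.38, 7.75, 7.60 and 7.06 on stromal 1 to 4, against 6.92, 6.17 and 5.74 on endothelial 1 to 3. The groups were apart by 0.14, and the 2.25-fold higher stromal level (log2 difference 1.17, adjusted p = 0.0123) missed the required size without endothelial 3 (0.90), and missed the call after a second quantile normalization (0.98, limma adjusted p = 0.0566). With the hybridisation control level as a block, which leaves endothelial 1 alone against the stromal arrays, the difference was 0.53 (limma adjusted p = 0.229).

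Angpt1 transcripts did not differ by the call rule and were bright in both populations by 1 of 2 probe sets. Probe set 1439066_at read 11.40, 11.22, 11.00 and 11.35 on stromal 1 to 4, against 11.96, 11.17 and 11.93 on endothelial 1 to 3. Endothelial 2 lay inside the stromal range, and the difference was -0.44 with an interval of -1.0 to 0.12 (limma adjusted p = 0.150). The dim probe set 1421441_at had 6.48 ± 0.27 on the stromal arrays (SD, n = 4) and 5.90 ± 0.38 on the endothelial arrays (n = 3). It leaned the other way, by 0.57 with an interval of 0.01 to 1.14 (limma adjusted p = 0.0723). Neither interval reaches beyond a difference of 1.14 in size.

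**Figure D2:**
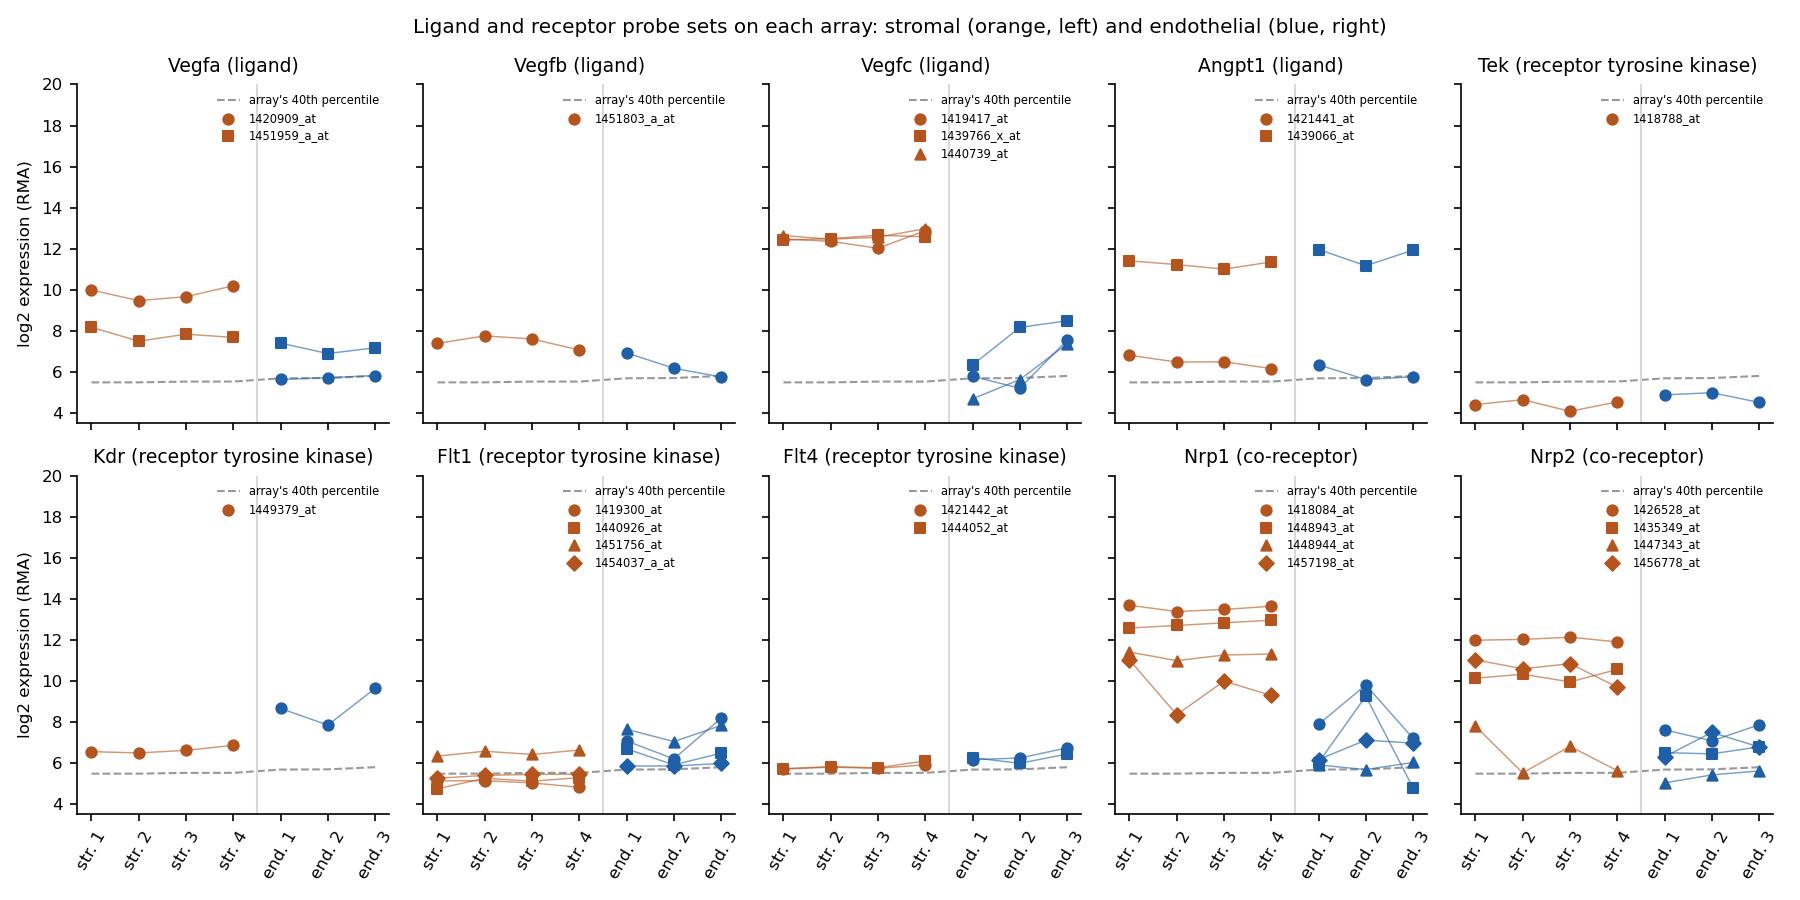
Log2 expression (vertical axis) of every probe set of the 10 genes on each of the 7 arrays, stromal 1 to 4 at the left in orange and endothelial 1 to 3 at the right in blue, with the array's 40th percentile dashed. Lines join the arrays of a population for the same probe set only as a guide to the eye. Vegfc and Nrp1 stand higher on the stromal side, Kdr and Flt1 stand higher on the endothelial side, Angpt1 stays level, and Tek lies under the dashed line on all 7 arrays.

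Nrp1, the co-receptor of VEGF-A and of semaphorin 3A, was higher on the stromal arrays in all 4 probe sets. Probe set 1418084_at read 13.69, 13.38, 13.49 and 13.64 on stromal 1 to 4, against 7.89, 9.80 and 7.20 on endothelial 1 to 3. This was 38.1-fold higher on the stromal arrays (log2 difference 5.25, adjusted p = 1.30e-04). Probe set 1448943_at read 12.58, 12.70, 12.83 and 12.96 on the stromal arrays, against 6.02, 9.25 and 4.79 on the endothelial arrays. Endothelial 2 thus stood above the other endothelial arrays in both, and without it the differences were 6.01 and 7.36. Without endothelial 3 they were 4.71 and 5.13, and all 4 of these were called. Probe set 1448944_at showed no such rise on endothelial 2: it read 11.41, 10.99, 11.26 and 11.31 on the stromal arrays, against 5.90, 5.68 and 6.03 on the endothelial arrays (difference 5.37, adjusted p = 4.99e-07). The fourth, 1457198_at, varied most between stromal arrays, from 8.35 on stromal 2 to 11.03 on stromal 1, and was higher by 2.92 (adjusted p = 0.00393). It read 6.17, 7.12 and 6.97 on endothelial 1 to 3, so it too was highest on endothelial 2, by a small margin.

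Nrp2, the co-receptor that binds VEGF-C and semaphorin 3F, was called higher on the stromal arrays in 3 of 4 probe sets. Probe set 1426528_at read 11.98, 12.02, 12.13 and 11.90 on stromal 1 to 4, against 7.62, 7.08 and 7.86 on endothelial 1 to 3. The stromal arrays were 22.5-fold higher (log2 difference 4.49, adjusted p = 2.32e-06). Probe sets 1435349_at and 1456778_at were 12.7-fold and 12.8-fold higher. The last, 1447343_at, read 7.79, 5.52, 6.81 and 5.63 on the stromal arrays, against 5.03, 5.42 and 5.61 on the endothelial arrays, and the groups overlapped (difference 1.08, interval -0.16 to 2.33, limma adjusted p = 0.115). Stromal 1 and 3 were its high arrays, as they were for 1457198_at of Nrp1.

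Kdr, which encodes VEGFR2, the main signalling receptor for VEGF-A, was lower on the stromal arrays. It read 6.55, 6.49, 6.62 and 6.86 on stromal 1 to 4, against 8.66, 7.85 and 9.63 on endothelial 1 to 3. The lowest endothelial array stood 0.99 above the highest stromal array, and the endothelial level was 4.24-fold higher (log2 difference -2.08, interval -2.97 to -1.20, adjusted p = 0.00262). The difference was -1.62 without endothelial 3 and -2.52 without endothelial 2, and called both times.

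Flt1, which encodes VEGFR1, a receptor with weak kinase activity that also has a secreted form, moved with Kdr. Probe set 1419300_at read 5.13, 5.14, 5.03 and 4.81 on stromal 1 to 4, against 7.08, 6.20 and 8.18 on endothelial 1 to 3 (difference -2.12, adjusted p = 0.00352). The stromal values lay below the arrays' 40th percentile, so no fold is given. Probe set 1440926_at had 5.10 ± 0.25 on the stromal (SD, n = 4) and 6.36 ± 0.40 on the endothelial arrays (n = 3; limma adjusted p = 0.00340), and 1451756_at had 6.49 ± 0.14 and 7.51 ± 0.41 (limma adjusted p = 0.00617). The last stood at -1.02, just past the required size, and missed it without stromal 1, stromal 3, endothelial 1 or endothelial 3 (-0.96, -0.99, -0.95 and -0.85). The other, 1454037_a_at, lay at 5.25 to 5.46 on the stromal arrays, against 5.85 to 5.98 on the endothelial arrays and was not called (-0.51, adjusted p = 0.0246). All but 1451756_at of the 4 probe sets passed the filter through the 3 endothelial arrays alone. They had to differ to be tested, so their adjusted p-values above are a description. In the fit without a filter the limma adjusted p was 0.00422 for 1419300_at and 0.00348 for 1440926_at.

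Flt4, the VEGF-C receptor of lymphatic and sinusoidal endothelium, lay little above the arrays' 40th percentile in both populations. Probe set 1421442_at read 5.70, 5.80, 5.74 and 5.91 on stromal 1 to 4, against 6.16, 6.24 and 6.74 on endothelial 1 to 3. The difference of -0.59 (interval -1.05 to -0.14, limma adjusted p = 0.0308) was under the required size, and 1444052_at overlapped between the populations (-0.37, limma adjusted p = 0.123). Tek, the angiopoietin receptor, read 4.40, 4.64, 4.07 and 4.53 on the stromal arrays, against 4.87, 4.98 and 4.50 on the endothelial arrays. All 7 values lay under their array's 40th percentile. In a fit without the filter its difference was -0.38 with an interval of -0.83 to 0.08.

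Among the endothelial arrays Kdr and the Flt1 probe sets 1419300_at and 1451756_at had the same order, with endothelial 2 lowest and endothelial 3 highest. The other Flt1 probe sets did not share it. On endothelial 1 to 3, 1440926_at read 6.69, 5.91 and 6.48, and 1454037_a_at read 5.85, 5.85 and 5.98. The mean of the endothelial marker list was level there (7.03, 7.08 and 7.05 on endothelial 1 to 3). That of the megakaryocyte list was 13.82, 13.43 and 13.68, and 8 of its 10 genes were lowest on endothelial 2, with 0 highest there. The B lineage list, which includes Ebf1, a gene that stroma also expresses, averaged 7.57, 9.71 and 7.56, and the neutrophil precursor list 11.86, 12.55 and 9.54. Endothelial 2, lowest for Kdr, was thus highest for both of these lists. The endothelial markers had no common order: 8 of 16 were lowest on endothelial 2, such as the sorting antigen gene Pecam1 at 8.86, 7.68 and 8.68, and 5 were highest there, such as the transcription factor gene Erg at 5.83, 8.30 and 6.17. For the high Nrp1 values of endothelial 2, the reticular list mean was 5.32, 6.30 and 6.04 on endothelial 1 to 3. Of its 11 genes 6 were highest on endothelial 2 and 2, Ebf3 and Adipoq, were lowest there. The widest spread was that of Pdgfrb, at 2.93, 8.94 and 8.72. The part of these lists in the Kdr, Flt1 and Nrp1 values was not tested.

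**Figure D3:**
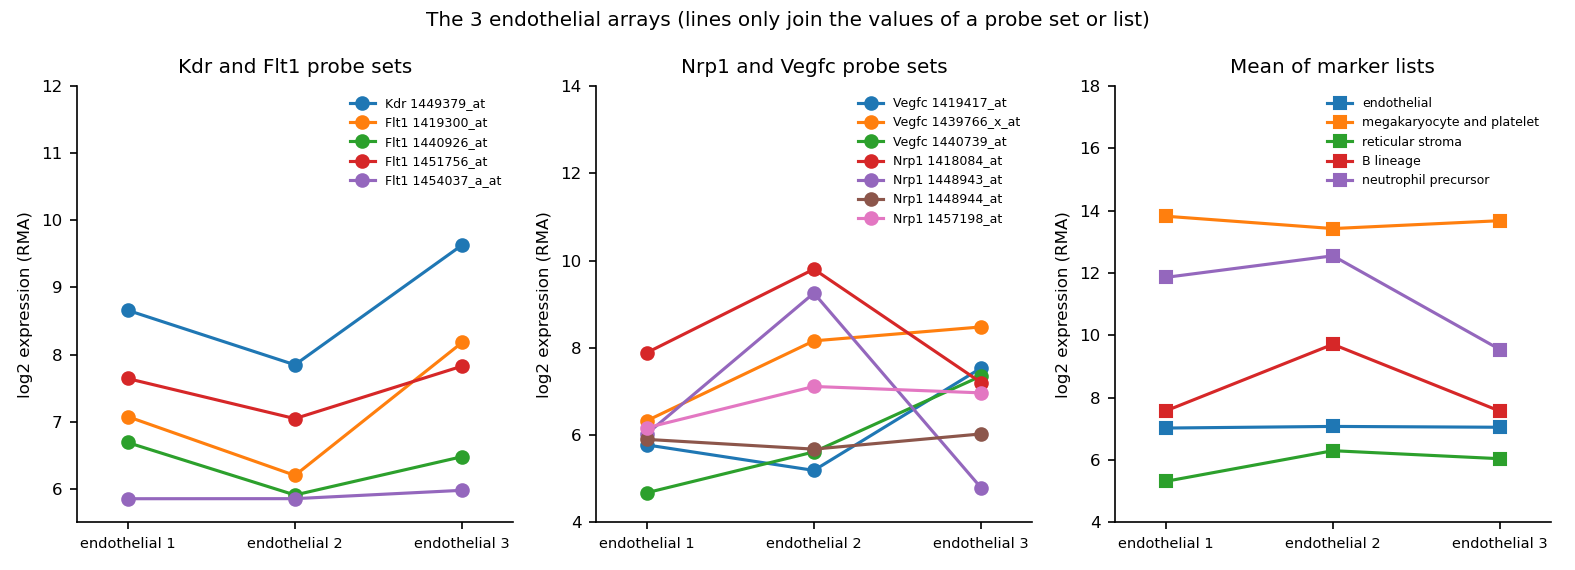
Log2 expression on the 3 endothelial arrays of the Kdr and Flt1 probe sets (left), the Nrp1 and Vegfc probe sets (middle) and the means of 5 marker lists (right). Kdr lies at 8.66, 7.85 and 9.63. All Nrp1 probe sets except 1448944_at peak on endothelial 2, and the B lineage list mean is highest on endothelial 2 at 9.71.

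Further ligand genes of both families were also higher on the stromal arrays. For each gene the probe set of highest mean was used, and among all 13995 genes tested this way 30.5% were higher and 16.0% lower on the stromal arrays, with a median difference of 0.19. All 3 further ligand genes tested were higher. Angpt4, an angiopoietin that activates TIE2, had 11.19 ± 0.19 on the stromal (SD, n = 4) and 6.89 ± 0.19 on the endothelial arrays (n = 3, limma adjusted p = 1.41e-06). Angpt2, which acts as a context-dependent antagonist of TIE2, was higher by 2.81 (adjusted p = 1.68e-04), and only 1 of its 2 probe sets was called. Pgf, which encodes placental growth factor, a VEGFR1 ligand, was higher by 1.97 (adjusted p = 2.27e-04). Vegfd and Tie1, named after their values were seen, were below the filter. This list and those below were chosen with earlier results of these data known, so their counts are a description.

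Genes that process VEGF-C or bind angiopoietins in the matrix were higher in 4 of 7 tested and lower in 0, with a list median of 1.57. Of all genes tested, 30.5% were higher and 16.0% lower. Ccbe1, whose product brings VEGF-C to its protease, read 11.16 ± 0.17 on the stromal (SD, n = 4) and 5.76 ± 0.50 on the endothelial arrays (n = 3, limma adjusted p = 2.10e-06), though 2 of its 4 probe sets were not called. Adamts3, the protease that activates VEGF-C with Ccbe1, was higher by 1.57 (adjusted p = 0.00617) in 1 of its 2 probe sets, with -0.26 in the other. The proprotein convertase gene Pcsk5 was higher by 3.74, with 2 of its 5 probe sets called, and the matrix protein gene Svep1, a TIE pathway partner in lymphatic vessels, by 4.92.

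Neuropilin partners went both ways, with 4 of 9 higher, 2 lower and a median over those tested of 0.19. The shares over all genes tested were 30.5% higher and 16.0% lower. The plexin genes, whose products signal for semaphorins together with neuropilins, split: Plxnd1, Plxna2 and Plxna1 were higher by 3.81, 3.52 and 1.70 (the last in 1 of 2 probe sets), and Plxna4 stood at -3.52, all with limma adjusted p between 2.51e-05 and 1.67e-04. Gipc1, which encodes an adaptor that binds the tail of neuropilin-1, read 7.82 ± 0.25 on the stromal arrays, against 10.25 ± 0.31 on the endothelial arrays. The ligand gene Sema3b was higher by 1.33, in 1 of its 3 probe sets.

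Of 20 genes whose products act next to the receptors, 4 were higher on the stromal arrays and 9 lower, with a median of -0.83. Over all genes tested, 30.5% were higher and 16.0% lower. Lower were Vav3 (-3.73), Fyn (-3.47), Nck2 (-3.32), Prkca (-3.14), Ptpn11 (-3.02), Prkcb (-2.51), Src (-1.71), Dok2 (-1.39) and Sh2d2a (-1.09), which encode signalling proteins that blood cells use as well. The 10 megakaryocyte markers moved in the same direction, and their part in this list was not tested. Higher were the adaptor gene Grb10 (4.84), Plcg1 (2.34), which encodes the phospholipase that VEGFR2 recruits, Pik3r1 (2.26) and Akt1 (1.39). Of Grb10 and of Plcg1 only 1 of 3 probe sets was called, and the lowest differences of the others were -0.20 and -1.06. Akt1 rests on its brightest probe set, since another of its 4 was called lower, and missed the required size after a second quantile normalization (0.91) or cyclic loess (0.88). Sh2d2a missed it without stromal 1 (-0.99) or endothelial 3 (-0.76).

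Of 8 genes of the hypoxia pathway that controls Vegfa, 5 were higher and 1 was lower on the stromal arrays, with a median of 1.86. Among all genes tested, 30.5% were higher and 16.0% lower. Hif1a, which encodes the oxygen-regulated subunit HIF-1 alpha, had 11.01 ± 0.40 on the stromal (SD, n = 4) and 7.80 ± 1.30 on the endothelial arrays (n = 3, limma adjusted p = 0.00194), with endothelial 2 the highest of these at 9.29. Its partner gene Arnt was higher by 1.94, and Vhl and Egln1, whose products mark HIF proteins for destruction, by 1.77 and 2.65. Only 1 of 5 Arnt and 1 of 2 Vhl probe sets was called, against 3 of 4 for Hif1a and both for Egln1. Epas1, which encodes HIF-2 alpha, was higher by 8.54 in its brightest probe set and by 1.51 in the other. The brightest averaged 14.50 on the stromal arrays, where the highest value of any probe set was 14.75 to 14.82. Egln3, a prolyl hydroxylase gene that HIF induces in many cells, was lower and read 5.70, 5.99, 5.32 and 5.71 on stromal 1 to 4, against 8.28, 9.39 and 10.14 on endothelial 1 to 3.

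Among 10 genes that VEGF or FOXO1 is known to induce in endothelium, 3 were higher on the stromal arrays, 1 was lower and the median was -0.02. These counts are near the shares over all genes tested, 30.5% higher and 16.0% lower, and nothing is read from them. Esm1, known as a marker of VEGF-stimulated endothelial tip cells, was higher on the stromal arrays at 11.84, 12.37, 12.22 and 12.27, against 5.05, 5.35 and 3.85 on endothelial 1 to 3. It passed the filter through the stromal arrays alone and so had to differ to be tested, which makes its place among the 3 a description. Foxo1, a transcription factor gene that angiopoietin-1 signalling restrains at the protein level, was higher by 1.78, and Angpt2, counted here again, by 2.81. Of 4 Foxo1 probe sets 2 were called. Foxo1 missed the call after a second quantile normalization (1.32, limma adjusted p = 0.0556). Dusp5 was lower, at -1.02, and missed the required size without stromal 1 (-0.93), stromal 4 (-0.94) or endothelial 2 (-0.83).

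**Figure D4:**
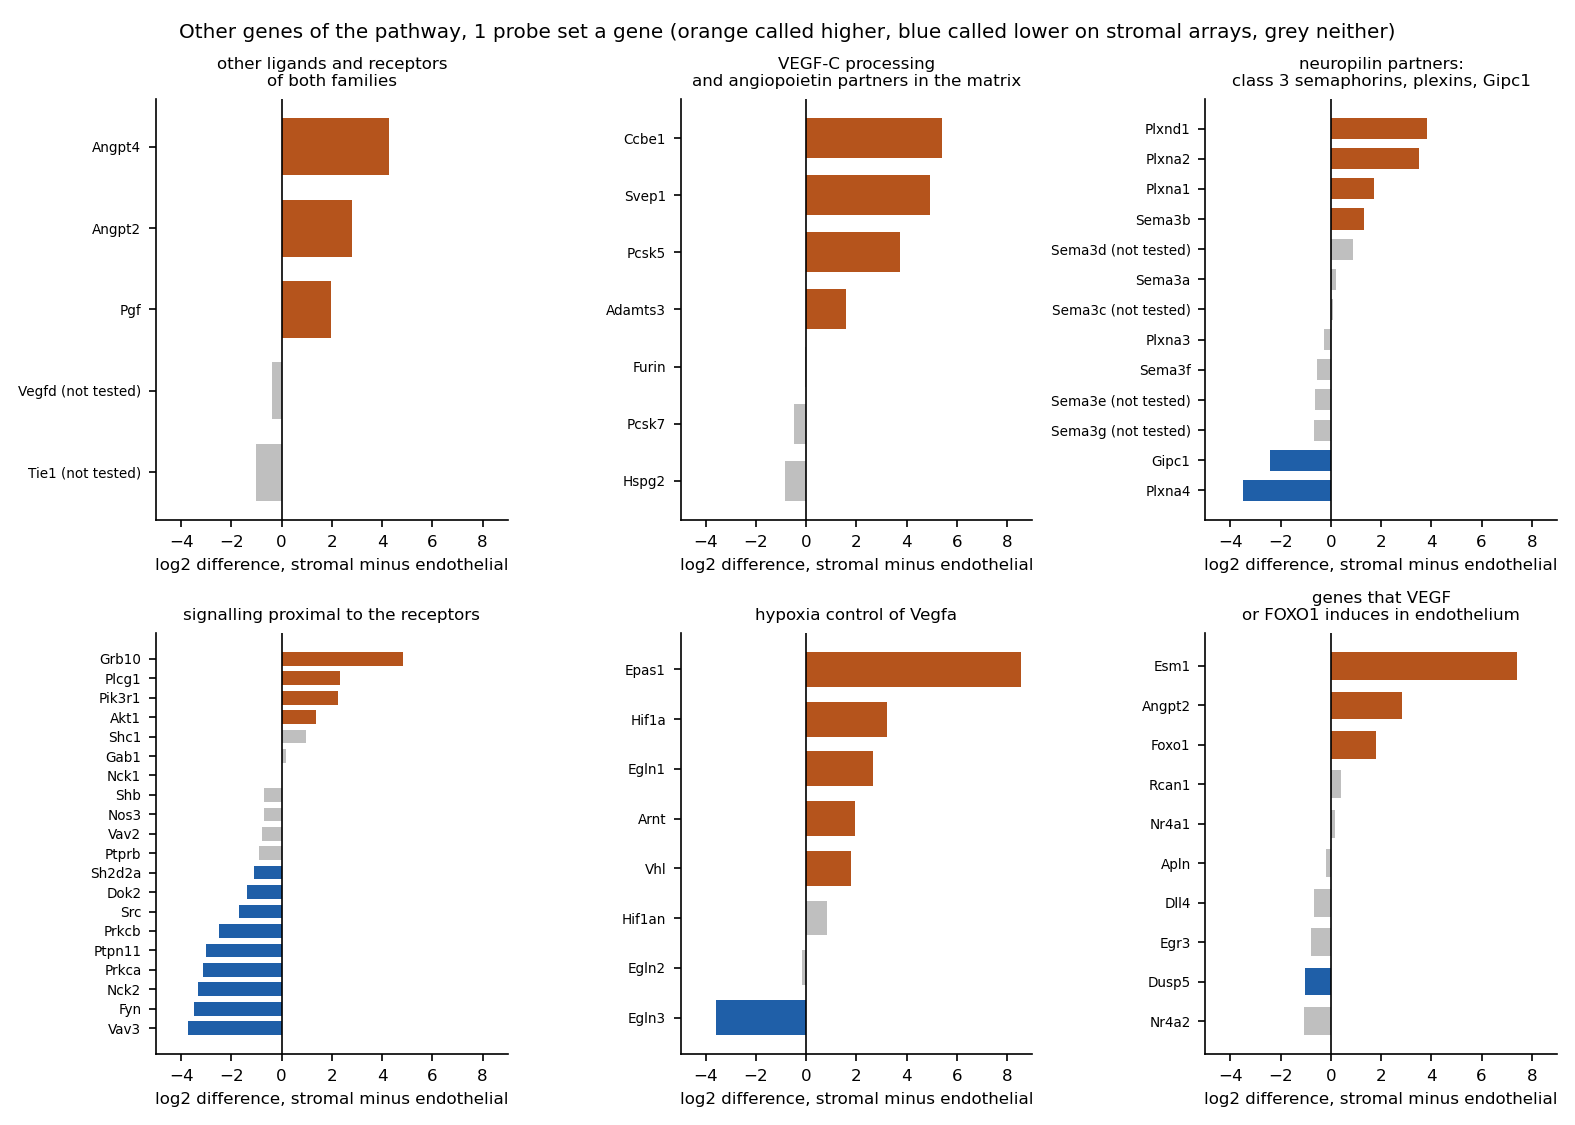
Log2 difference, stromal minus endothelial, of the other genes of the pathway in 6 lists, 1 probe set a gene, in orange where called higher on the stromal arrays, blue where called lower and grey where neither. The largest bar toward the stromal arrays is Epas1 at 8.54 and the largest toward the endothelial arrays is Vav3 at -3.73.

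The probe sets whose values most resembled 5 of the members over the 7 arrays are given as a description, since the 2 populations set most of each correlation and the arrays are shared. For Kdr the nearest were Bcl11a, Sh3gl2, Slc6a3, Prkab2 and Uba7 (Pearson r of 0.996 to 0.999). For Vegfa they were Il17rd, Ptgfr, Ackr4, Dcbld2 and Jag1 (r of at least 0.999), and for Nrp1 App, Ak3, Dpep1, Smad5 and P4ha1 (r of 0.998 to 0.999). For Angpt1, which did not follow the populations, they were Dyrk1a, Flii, Asb7, Zmat4 and Chst11 (r of 0.984 to 0.998), and for Tek, whose values lie near the floor, Rhbdd2, Clec4a2, Sh3kbp1, Sema4a and Cptp (r of 0.958 to 0.986).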

How the data were processed

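The deposited values are log2 expression per probe set, for which the submitters' processing notes name Affymetrix Expression Console 1.1 and RMA, so background correction and quantile normalization were already done. Which arrays were normalized together is not given in the sources used here, and no detection calls were used. Of 45101 probe sets 64 are controls and were left out of the fits. Gene symbols are those of a platform annotation of 2016, in which 34958 probe sets have 1 symbol and 932 several; all 24 member probe sets kept their symbol in the RefSeq gene table. Listed genes without a single-symbol probe set were not analysed here.

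limma 3.58.1 (lmFit, eBayes, no covariates) in R 4.3.3 was fitted to the 29438 probe sets with at least 3 arrays above their own 40th percentile, with Benjamini-Hochberg adjustment over all of them, and was tested on simulated data. The members and lists were chosen with earlier results of these data known. Named were all members, every listed pathway gene past the call rule, and the 5 nearest probe sets of 5 members. For arrays, their number limits the precision.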

Additional observations from a re-analysis of the deposited data

Results flagged for a closer look

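Of 59 probe sets examined on the 4 stromal arrays by Dixon's test, 1 had an array apart from the others, where about 1 in 20 groups would be by chance. It was Vav3, with 4.47 on stromal 3 and 5.44 to 5.59 on the other stromal arrays. All 4 values lay below those of the endothelial arrays.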

How the results depend on the processing

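Of the differences of members under the alternatives, 435 kept their side of the call rule, 11 fell short of it and none reversed. Another 3 (Vegfa 1451959_a_at, Flt1 1454037_a_at and Flt4 1421442_at) counted as called only by adjusted p alone, where no size was required. Among the pathway genes 710 kept theirs and 17 fell short. Settings in which a probe set was not tested are left out of these tallies. Settings chosen after seeing the data aside, Flt1 1419300_at and 1440926_at had 12 alternatives each, against 18 for Kdr. With the filter at the 60th percentile, or without any 1 of the endothelial arrays, these Flt1 probe sets were not tested and could not be called. Kdr was called under all 18 alternatives (-2.59 to -1.62, limma adjusted p 4.21e-04 to 0.0347). The 12 member probe sets called higher numbered 5 with 1 probe set per gene, and 11 to 12 when each array was left out. The 4 called lower numbered 2 with 1 probe set per gene, with a filter at the 60th percentile, and without stromal 4 and endothelial 2 together, and 1 to 4 when each array was left out. Over all probe sets, 7649 higher and 4292 lower calls became 4319 and 2252 with 1 probe set per gene, and 8579 were lower by adjusted p alone. Leaving out each array gave 6860 to 8391 higher and 3265 to 4352 lower calls. Without endothelial 2 and without the filter as well there were 8518 and 6682, a setting chosen after seeing the data like its counterparts for endothelial 1 and 3. The higher share of calls was 64.1%, against 51.9% after a second quantile normalization and 59.4% after cyclic loess. Flt1 probe set 1440926_at missed the required size after cyclic loess (-0.78), Vegfb after a second quantile normalization (0.98), and Akt1 after both of these (0.88 by loess, 0.91 by quantile). The cause of these changes was not tested. The replicate block left the member counts at 12 higher and 4 lower, with 6981 and 4222 over all probe sets. The labels do not say whether the replicate numbers pair the arrays. Deviations of same-numbered arrays from the population means correlated at -0.12, 0.00 and 0.12, which cannot settle whether they shared mice or sorts. The block by hybridisation control level compares endothelial 1 alone with the stromal arrays, assumed to vary like the others. Values near an array's 40th percentile give little room to show a lower level, which touches Tek, Flt4 and most of Flt1.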
